A study of Mus musculus with 9 samples.

Results

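The genes described here encode 10 liver enzymes that turn cholesterol into bile acids and conjugate them: Cyp7a1, Cyp8b1, Cyp27a1, Cyp7b1, Cyp2c70, Hsd3b7, Akr1d1, Amacr, Baat and Slc27a5. They were chosen by name, for their place in the pathway, with earlier results of these data known. They are 10 of the 23337 genes in the count tables. All 10 passed the filter on low counts, which kept 12587 genes. Bulk RNA-seq was done on fed-state livers of WT mice that ate one of 3 diets for 12 weeks, beginning at the age of 8 weeks. The ND group (n = 3) received normal diet and the HFD group (n = 3) a 60% high fat diet. The HFD_HDCA group (n = 3) received the same high fat diet with 0.25% hyodeoxycholic acid (HDCA), a secondary bile acid that gut bacteria form. The labels used here name no strain or sex. They do not say whether a library is 1 animal. A p-value therefore sets a difference against the spread between these libraries, which may not be the spread between animals.

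Bile acids are made from cholesterol in hepatocytes and are the main route by which the body disposes of cholesterol. In the classic route Cyp7a1 carries out the first and rate-limiting hydroxylation, Hsd3b7 and Akr1d1 remodel the sterol rings, and Cyp8b1 adds the hydroxyl group that sets cholic acid apart from chenodeoxycholic acid. In the alternative route Cyp27a1 oxidises the side chain and Cyp7b1 hydroxylates the resulting oxysterols. In mice Cyp2c70 then turns chenodeoxycholic acid into the muricholic acids, Amacr flips a methyl group so that peroxisomes can shorten the side chain, and Slc27a5 and Baat join the product to coenzyme A and then to taurine or glycine. Bile acids that return to the liver lower Cyp7a1 and Cyp8b1 transcription through the receptor FXR (Nr1h4) and its target SHP (Nr0b2), and through intestinal FGF15 acting on FGFR4 in hepatocytes.

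Expression is given as CPM, reads relative to library size, with library sizes scaled by TMM, which corrects for a few very abundant genes. The libraries held 16994353 to 20509203 reads on genes. The 10 enzymes took 0.451 to 0.567% of these reads in the ND libraries, 0.355 to 0.401% in HFD and 0.377 to 0.437% in HFD_HDCA. Libraries are numbered as the labels number them, and some of them stood apart. HFD 1 differed in clock genes in both directions, with Dbp at 85.8 CPM against 0.752 to 14.6 in the other 8 libraries and Per3 at 26.2 against 1.16 to 4.22, but Arntl at 4.71 against 17.3 to 42.9 and Clock at 53.5 against 68.9 to 98.6. HFD_HDCA 1 had a summed level of 10 acute phase genes of 36299 CPM, against 11023 to 13411 CPM in the others. HFD_HDCA 1 was also the highest of its group for 9 of the 10 enzymes, against 39.5% of all tested genes, and HFD 2 was the highest of its group for 9 of 10, against 36.7%. ND 3 was the highest of its group for 8 of 10, against 34.9%. Scaled by total count alone, these numbers were 7 of 10 for HFD_HDCA 1 (30.6% of all tested genes), 4 of 10 for HFD 2 (20.8%) and 8 of 10 for ND 3 (33.9%). The summed level of 10 hepatocyte markers ran from 93259 to 102096 CPM in ND, 110406 to 125841 in HFD and 112359 to 128135 in HFD_HDCA. It follows Alb, which ran from 59441 to 67677 CPM in ND, 75902 to 96557 in HFD and 78683 to 93785 in HFD_HDCA, while 5 markers had a positive and 5 a negative log2 difference in each high-fat diet against ND. That of 8 macrophage markers ran from 379 to 450 CPM in ND, 133 to 891 in HFD and 332 to 666 in HFD_HDCA. HFD 3 held the highest of these, with Marco at 228 CPM against 2.68 to 20.5 in the other libraries, and HFD 2 the lowest. The markers did not move together, as Clec4f stood at 78.1 CPM in HFD 3 against 119 to 137 in ND. The summed level of 6 T and B cell markers was low, at 2.76 to 2.91 CPM in ND, 1.87 to 3.95 in HFD and 5.23 to 6.04 in HFD_HDCA, where every library lay above all others. What part these markers have in the results was not tested. None of the markers of 6 liver cell types was at 0 in all 9 libraries. In bulk tissue, fewer cells of a type and less RNA per cell cannot be told apart.

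The upstream sequences of 2 of the hydroxylases are shown because their transcripts lay at opposite ends of the response: across the 3 diets Cyp2c70 had its lowest and Cyp8b1 its highest libraries in HFD_HDCA. Each is the 250 bases before the gene's start on the gene's own strand, from RefSeq on GRCm38.p6. Capitals mark matches to motifs that were searched on both strands.
Cyp8b1, chr9:121916306-121916555, minus strand: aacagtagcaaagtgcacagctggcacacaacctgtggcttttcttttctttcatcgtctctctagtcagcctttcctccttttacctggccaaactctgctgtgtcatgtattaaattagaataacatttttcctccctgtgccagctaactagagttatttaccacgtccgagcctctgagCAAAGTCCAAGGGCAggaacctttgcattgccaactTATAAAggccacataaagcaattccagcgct
Cyp2c70, chr19:40187287-40187536, minus strand: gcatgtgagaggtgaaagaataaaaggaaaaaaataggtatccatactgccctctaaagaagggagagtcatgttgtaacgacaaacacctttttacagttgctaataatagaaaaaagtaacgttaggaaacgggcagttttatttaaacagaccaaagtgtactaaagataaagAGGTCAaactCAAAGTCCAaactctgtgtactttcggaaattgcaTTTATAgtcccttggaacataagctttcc
Both sequences held CAAAGTCCA, a motif of the hepatocyte factor HNF4A, starting 67 bases before the start of Cyp8b1 and 64 bases before that of Cyp2c70. This motif occurred in 0.3835% of 32851 mouse promoter windows of the same length. In Cyp8b1 it overlapped CAAGGNCA, a motif of the nuclear receptor NR5A2 (LRH-1) that 5.528% of windows held. In Cyp2c70 the nuclear receptor motif AGGTCA (14.02% of windows) began 10 bases further upstream, 74 bases before the start. Both sequences also had a match to TATAAA, the letters of the TATA box, which 12.37% of windows held on either strand. It began 31 bases before the start of Cyp8b1, on the gene's own strand. In Cyp2c70 it began 29 bases before the start, on the strand opposite to the gene, and so is printed as its reverse complement, TTTATA. The search also took in DBP (TTANGTAA, 2.061% of windows), C/EBP (TTGCNCAA, 2.609%) and the E-box (CACGTG, 6.021%), which were not among the letters of these windows. The table holds promoters of 5 of the 10 genes. Akr1d1 had 2 matches, both to AGGTCA on the strand opposite to the gene, and Cyp27a1 and Hsd3b7 had none. A match describes the letters only and is not evidence of binding.

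Diets were compared in 1 edgeR fit to all 9 libraries (quasi-likelihood F test), and p-values were adjusted by Benjamini-Hochberg over the 12587 genes. A gene is said to have risen or fallen where the adjusted p was under 0.05, and every adjusted p is from this test unless another is named. Fold changes are on the log2 scale with their standard error (SE).

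Cyp7a1 catalyses the first step of the classic route (chr4:6265612-6275631, minus strand, mm10). Its level was 41.8, 52.5 and 73.7 CPM in ND 1 to 3, 85.1, 119 and 28.1 CPM in HFD 1 to 3, and 48.0, 2.96 and 12.3 CPM in HFD_HDCA 1 to 3. The groups overlapped in every comparison, and HFD_HDCA 2 was the lowest library by far, with 51 reads. The coefficient of variation was 29.0% in ND, 59.4% in HFD and 113% in HFD_HDCA, the widest of the 10 enzymes in HFD and in HFD_HDCA. The log2 difference was 0.47 ± 0.83 for HFD minus ND, with an adjusted p of 0.885. It was -1.88 ± 0.87 for HFD_HDCA minus HFD, its 95% interval was -3.88 to 0.12 and its adjusted p 0.252. For HFD_HDCA minus ND it was -1.41 ± 0.86, with an adjusted p of 0.332. The sizes depend on single HFD_HDCA libraries: without HFD_HDCA 1 these 2 differences were -3.33 (adjusted p = 0.0805) and -2.88 (0.0923), and without HFD_HDCA 2 they were -1.33 (0.304) and -0.88 (0.451). A difference between diets was therefore not detectable at this spread, and the intervals are wide enough to hold large ones.

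Cyp8b1 makes the precursor of cholic acid (chr9:121914356-121916305, minus strand, mm10). Its level was 259, 364 and 325 CPM in ND, 163, 552 and 487 CPM in HFD, and 867, 845 and 770 CPM in HFD_HDCA, in the order of the library numbers. All 3 HFD_HDCA libraries lay above all 6 others, and within HFD the library HFD 1 lay below every ND library. The mean in HFD_HDCA was 2.62 times that in ND, a log2 difference of 1.39 ± 0.37, and its adjusted p of 0.0630 missed the threshold. Against HFD the log2 difference was 1.05 ± 0.37 with an adjusted p of 0.148. HFD minus ND gave 0.34 ± 0.37 with an adjusted p of 0.794. The adjusted p-values depended on HFD 1, the library with the shifted clock genes. Without HFD 1 the adjusted p was 0.00121 for HFD_HDCA against ND and 0.0442 for HFD_HDCA against HFD, where the log2 difference was then 0.67. HFD 1 is in neither group of HFD_HDCA against ND, whose log2 difference stayed at 1.39 without it. An edgeR fit on only those 2 groups gave an adjusted p of 0.00194. What part the clock genes have in these results was not tested. Without both HFD 1 and HFD_HDCA 1 Cyp8b1 passed in every comparison, with log2 differences of 0.69 for HFD minus ND (adjusted p = 0.0295), 0.66 for HFD_HDCA minus HFD (0.0393) and 1.35 for HFD_HDCA minus ND (0.00102). DESeq2 gave adjusted p-values of 0.0269 against HFD and 0.00118 against ND with all 9 libraries. On simulated counts DESeq2 wrongly called more genes than edgeR.

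**Figure D1:**
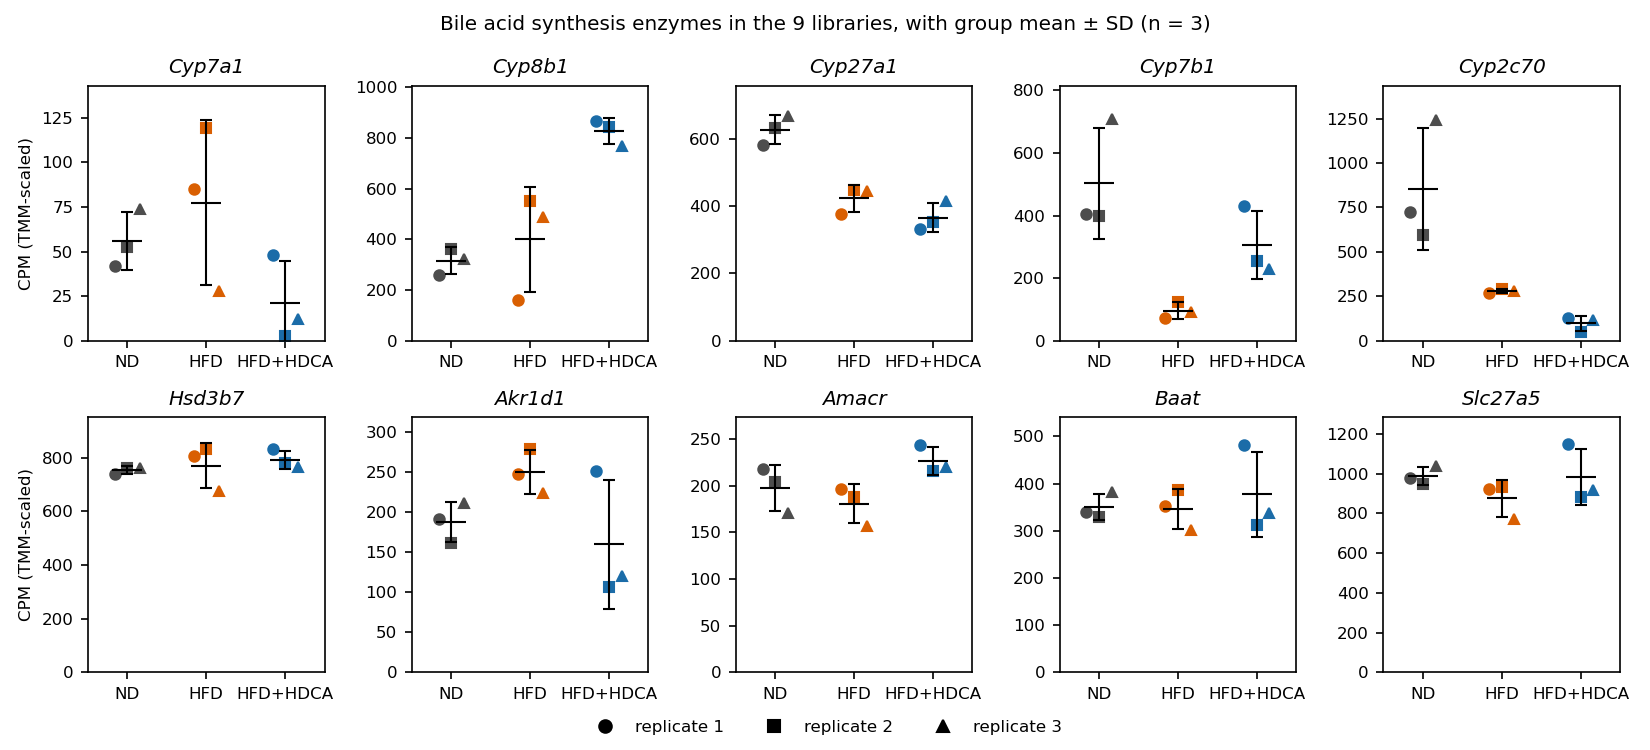
Level of each of the 10 enzymes in the 9 libraries, in CPM on TMM-scaled library sizes (axes start at 0), by diet. Symbols are single libraries by replicate number, and black bars are the group mean ± SD (n = 3); Cyp7b1 is lowest in HFD at 73.2 to 126 CPM, and Cyp2c70 steps down from 594 to 1243 CPM in ND to 48.5 to 131 CPM in HFD_HDCA.

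Cyp27a1, a mitochondrial sterol side-chain hydroxylase that opens the alternative route (chr1:74713574-74737890, plus strand, mm10), fell in HFD_HDCA against ND. Its level was 581, 630 and 668 CPM in ND, 376, 448 and 443 CPM in HFD, and 332, 351 and 413 CPM in HFD_HDCA. Every ND library lay above all 6 high-fat libraries, while HFD and HFD_HDCA overlapped. The fall against ND was -0.78 ± 0.13 on the log2 scale, with an adjusted p of 0.00919, and it passed in 9 of 9 leave-one-out fits, each without 1 library (adjusted p 0.00684 to 0.0426). HFD minus ND gave -0.57 ± 0.13 with an adjusted p of 0.0839. That difference passed in DESeq2, with an adjusted p of 0.000590, and in edgeR without both libraries that stood apart (0.0381). HFD_HDCA minus HFD was -0.21 ± 0.13, with an adjusted p of 0.376.

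Cyp7b1, the oxysterol hydroxylase of the alternative route (chr3:18071950-18243338, minus strand, mm10), fell in HFD and was higher again in HFD_HDCA. Its level was 404, 397 and 707 CPM in ND, 73.2, 126 and 90.8 CPM in HFD, and 429, 254 and 230 CPM in HFD_HDCA. All HFD libraries lay below all others, and HFD_HDCA 1 reached the ND range. The HFD mean was 5.21-fold lower than that of ND, a log2 difference of -2.38 ± 0.33 with an adjusted p of 0.0162. This call passed in 8 of 9 leave-one-out fits and missed the threshold without HFD 3, at 0.0631. Against HFD, Cyp7b1 rose 3.16-fold in HFD_HDCA, a log2 difference of 1.66 ± 0.32 with an adjusted p of 0.0290. That rise passed in 6 of 9 such fits, and the adjusted p was 0.0519 without HFD 1, 0.0970 without HFD 3 and 0.0501 without HFD_HDCA 1. Without HFD 1 and HFD_HDCA 1 together the log2 difference was 1.19 with an adjusted p of 0.0662. That fit had fewer libraries in both groups, and its adjusted p was below the 0.0970 found without HFD 3 alone. What part the shifted clock genes of HFD 1 or the raised acute phase genes of HFD_HDCA 1 have was not tested. HFD_HDCA minus ND was -0.72 ± 0.31 (adjusted p = 0.182, 95% interval -1.43 to -0.02), with overlapping libraries. A small nuclear RNA gene on the same strand, Gm23686, lies within the locus and has no row in the count tables.

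In mouse liver Cyp7b1 is known to be higher in males. Of 10 other male-biased genes, 4 fell in HFD against ND (Hsd3b5, Keg1, Cyp4a12b and Susd4), where 0.477% of all tested genes fell. The median log2 difference of the list was -0.96, against 0.02 over all tested genes. These calls passed in 9 of 9 leave-one-out fits for Hsd3b5 and in 6 for Keg1, which lost it without ND 2, ND 3 or HFD 3. They passed in 3 for Cyp4a12b and Susd4, and the losses of each included the fits without any single ND library and without HFD 2 or HFD 3. In HFD_HDCA against HFD 0 of the 10 changed, where 3.4% of all genes changed, with a median of 0.61 against -0.002. Before adjustment 5 rose and 0 fell there at p under 0.05 (22% of all genes lay under it), and DESeq2 called 2 (8.8% of all genes called). In HFD_HDCA against ND 5 fell and 0 rose, where 2.82% of all genes fell, with a median of -0.76 against 0.03. Hsd3b5, a steroid dehydrogenase, stood at 240, 259 and 364 CPM in ND, 71.6, 58.3 and 98.0 in HFD, and 97.2, 130 and 112 in HFD_HDCA, so that unlike Cyp7b1 no HFD_HDCA library reached the ND range. Of 10 female-biased genes 6 passed the filter on low counts, which several did only through the high-fat libraries. Of these 6, 4 rose and 1 fell in HFD against ND, where 0.953% of all tested genes changed. In HFD_HDCA against HFD 0 rose and 2 fell (3.4% of all genes changed). In HFD_HDCA against ND 4 rose and 1 fell (6.47%). Because of that filter, rises against ND and falls against HFD were partly fixed in advance and are not read as a result. Both lists were chosen with earlier results of these data known, and how either bears on Cyp7b1 was not tested.

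Cyp2c70, the cytochrome that forms muricholic acids in mice (chr19:40153361-40187286, minus strand, mm10), fell in HFD_HDCA against ND more than any other of the 10. Its level was 723, 594 and 1243 CPM in ND, 269, 294 and 280 CPM in HFD, and 131, 48.5 and 115 CPM in HFD_HDCA. The 3 diets did not overlap at all: every ND library lay above every HFD library, and every HFD library above every HFD_HDCA library. The mean was 8.68-fold lower in HFD_HDCA than in ND, a log2 difference of -3.12 ± 0.40 with an adjusted p of 0.00421, which passed in 9 of 9 leave-one-out fits (0.00574 to 0.0226). The steps in between missed the threshold, at -1.60 ± 0.37 for HFD minus ND (adjusted p = 0.106) and -1.51 ± 0.37 for HFD_HDCA minus HFD (adjusted p = 0.0616). DESeq2, which wrongly called more genes than edgeR on simulated counts, called both, with adjusted p-values of 0.000121 and 0.000294. In edgeR, HFD minus ND also passed without HFD_HDCA 2, at 0.0333, and in a fit on only the 2 groups, at 0.0457. HFD_HDCA minus HFD also passed in edgeR with total count scaling, at 0.0459. It passed as well in limma on the authors' FPKM values (level per transcript length), at 0.0291 with a pseudocount of 1. Of 20 alternative settings, 17 missed the threshold for HFD minus ND and 16 for HFD_HDCA minus HFD. The gene belongs to the large Cyp2c family, whose near-identical members can share reads, so its counts depend on how the authors assigned them.

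Hsd3b7, the dehydrogenase that acts on the sterol rings after the first hydroxylation (chr7:127800609-127803802, plus strand, mm10), had the steadiest level of the 10. It stood at 738, 761 and 761 CPM in ND, 804, 831 and 674 CPM in HFD, and 830, 779 and 765 CPM in HFD_HDCA. The log2 difference was 0.03 for HFD minus ND, 0.04 for HFD_HDCA minus HFD and 0.07 for HFD_HDCA minus ND, each with an SE of 0.12 and adjusted p-values of 0.953, 0.873 and 0.739. The 95% intervals ran at their widest from -0.23 to 0.33, which bounds a difference of any of these diets to well under 1 on the log2 scale. GENCODE places Gm49388 on the same strand and 9430064I24Rik on the opposite strand across this locus, neither with a row in the count tables. Reads of the first cannot be told apart from Hsd3b7, nor those of the second unless counting used strand.

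Akr1d1, the reductase of the sterol A ring (chr6:37530173-37568815, plus strand, mm10), stood at 191, 161 and 211 CPM in ND, 248, 279 and 224 CPM in HFD, and 252, 107 and 120 CPM in HFD_HDCA. Every HFD library lay above every ND library. Within HFD_HDCA, library 1 lay in the HFD range and libraries 2 and 3 below all others. The log2 difference was 0.42 ± 0.29 for HFD minus ND (adjusted p = 0.655), -0.65 ± 0.29 for HFD_HDCA minus HFD (0.227) and -0.23 ± 0.29 for HFD_HDCA minus ND (0.637). Leaving out HFD_HDCA 1, the library with the raised acute phase genes, changed the call. Akr1d1 was then lower in HFD_HDCA by -1.13 against HFD, with an adjusted p of 0.00686, and by -0.73 against ND, with an adjusted p of 0.0208. The pseudogene Gm7463 overlaps the locus on the same strand and has no row in the count tables.

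The enzymes of side-chain shortening and conjugation did not pass the threshold in any comparison. Amacr, the racemase (chr15:10981756-10996624, plus strand, mm10), stood at 218, 204 and 170 CPM in ND, 197, 188 and 157 CPM in HFD, and 244, 215 and 220 CPM in HFD_HDCA. The HFD_HDCA libraries lay above all HFD libraries, by 0.32 ± 0.13 on the log2 scale with an adjusted p of 0.186. Slc27a5, the bile acid coenzyme A ligase (chr7:12988346-12998192, minus strand, mm10), stood at 976, 949 and 1036 CPM in ND, 924, 931 and 770 CPM in HFD, and 1146, 884 and 919 CPM in HFD_HDCA. Its HFD libraries lay below its ND libraries by a log2 difference of -0.17 ± 0.14, with an adjusted p of 0.700. Baat, the acyltransferase that adds taurine or glycine (chr4:49489418-49506558, minus strand, mm10), stood at 339, 329 and 381 CPM in ND, 352, 386 and 301 CPM in HFD, and 481, 313 and 337 CPM in HFD_HDCA. Its groups overlapped in every comparison, with adjusted p-values of 0.714 to 0.985. The highest Slc27a5 and Baat values were both in HFD_HDCA 1.

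**Figure D2:**
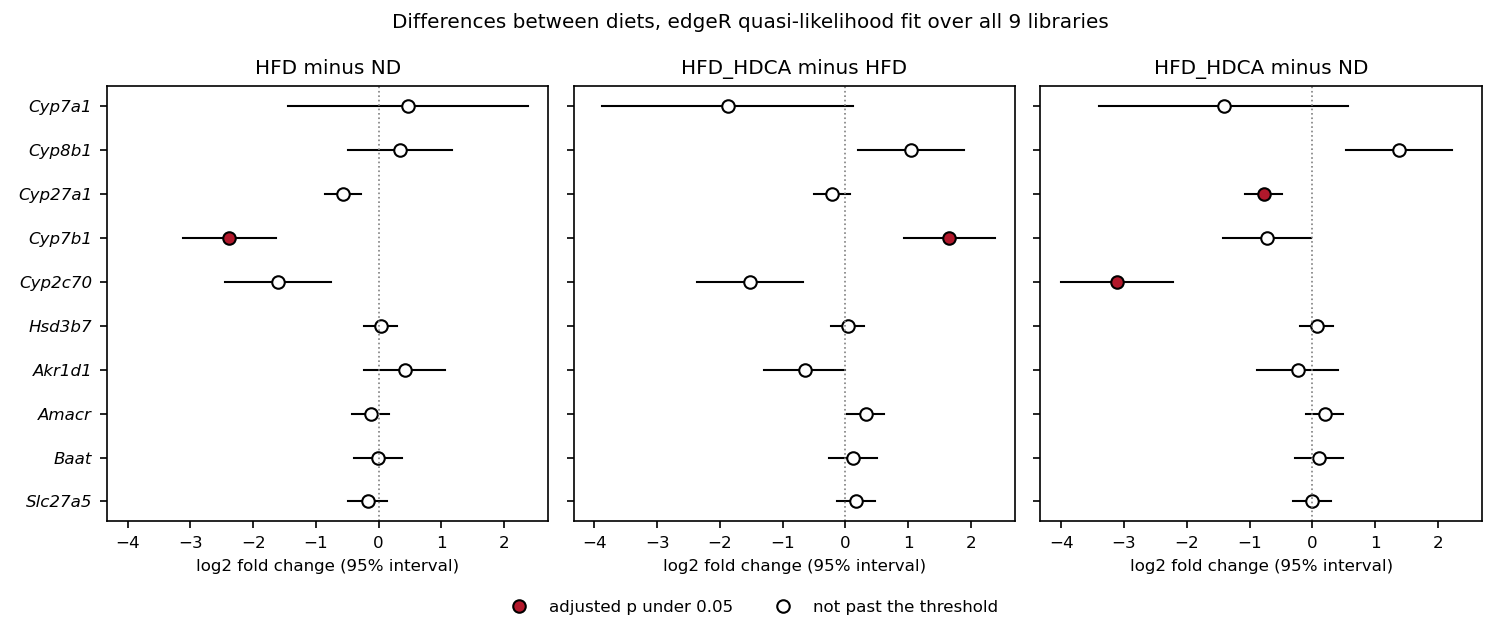
Log2 fold change of each enzyme in the 3 comparisons with its 95% interval, from edgeR's quasi-likelihood fit over 9 libraries; filled points have an adjusted p under 0.05. The filled points are Cyp7b1 at -2.38 and 1.66, and Cyp27a1 and Cyp2c70 at -0.78 and -3.12 in HFD_HDCA minus ND, and the interval of Cyp7a1 is the widest in each panel.

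Counted over the 10 enzymes, HFD against ND gave 1 fall (Cyp7b1) and 0 rises. Of all tested genes 0.953% changed in that comparison, 0.477% upward and 0.477% downward. Before adjustment 3 enzymes were lower and 0 higher at p under 0.05, where 11.5% of all genes lay under it, and 3 were lower by DESeq2, which called 3.08% of all genes. The libraries of the diets did not overlap for 5 of the 10, of which 4 were lower in HFD, against 20.1% of all tested genes. HFD_HDCA against HFD gave 1 rise (Cyp7b1) and 0 falls, against 3.4% of all genes changed, 1.67% upward and 1.73% downward. Before adjustment 3 enzymes were higher and 2 lower at p under 0.05 (22% of all genes), and 2 were higher and 1 lower by DESeq2 (8.8%). Non-overlap was seen for 4 of 10 (3 higher and 1 lower) against 22.4% of all genes. HFD_HDCA against ND gave 2 falls (Cyp27a1 and Cyp2c70) and 0 rises, against 6.47% of all genes changed, 3.65% upward and 2.82% downward. Before adjustment 1 enzyme was higher and 3 were lower at p under 0.05 (26.1% of all genes), and 1 was higher and 2 lower by DESeq2 (11.1%). Non-overlap was seen for 4 of 10 (2 higher and 2 lower) against 33.9% of all genes. The median log2 difference of the 10 enzymes was -0.07, 0.08 and -0.12 in these 3 comparisons, beside 0.02, -0.002 and 0.03 over all tested genes. The 3 comparisons share their groups, so their values for an enzyme are not independent of each other.

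Ratios of 2 enzymes within a library compare branches of the pathway without depending on how libraries were scaled. Over 9 such tests the exact two-sided permutation test with 3 against 3 libraries cannot go below a p of 0.1, so none can reach 0.05. The ratio of Cyp8b1 to Cyp7a1 was 6.20, 6.95 and 4.41 in ND, 1.91, 4.63 and 17.3 in HFD, and 18.1, 285 and 62.7 in HFD_HDCA. All HFD_HDCA libraries lay above the others, with a geometric mean 12.8-fold that of HFD and 11.9-fold that of ND (exact permutation p = 0.1 for each, the smallest possible, and 0.15 adjusted over the 9 tests). HFD and ND overlapped, at a log2 difference of -0.10 (exact permutation p = 1). The highest ratio, in HFD_HDCA 2, rests on 51 reads of Cyp7a1. Without that library the log2 differences of 3.68 and 3.58 were 2.65 and 2.55, and without HFD_HDCA 1 they were 4.64 and 4.54.

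The ratio of Cyp7b1 to Cyp7a1, which sets the alternative route beside the classic one, was 9.65, 7.57 and 9.59 in ND, 0.861, 1.05 and 3.23 in HFD, and 8.94, 85.8 and 18.8 in HFD_HDCA. The HFD libraries lay below all others, by -2.63 on the log2 scale against ND, and HFD_HDCA exceeded HFD by 4.09 (exact permutation p = 0.1 for each, 0.15 adjusted). HFD_HDCA and ND overlapped, with an exact permutation p of 0.3. Leaving out 1 library moved these log2 differences to between -3.22 (without HFD 3) and -2.27 (without HFD 1) for HFD minus ND, and to between 3.18 (without HFD_HDCA 2) and 4.81 (without HFD_HDCA 1) for HFD_HDCA minus HFD. The ratio of Cyp2c70 to Cyp8b1 sets muricholic acid formation beside the step to cholic acid. It was 2.79, 1.63 and 3.82 in ND, 1.65, 0.532 and 0.574 in HFD, and 0.151, 0.0574 and 0.150 in HFD_HDCA. The ratio was below that of every other library in all 3 HFD_HDCA libraries, with log2 differences of -2.87 against HFD and -4.57 against ND, a 23.7-fold lower geometric mean (exact permutation p = 0.1 for each, 0.15 adjusted). HFD minus ND was -1.70, with overlapping libraries and an exact permutation p of 0.2.

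**Figure D3:**
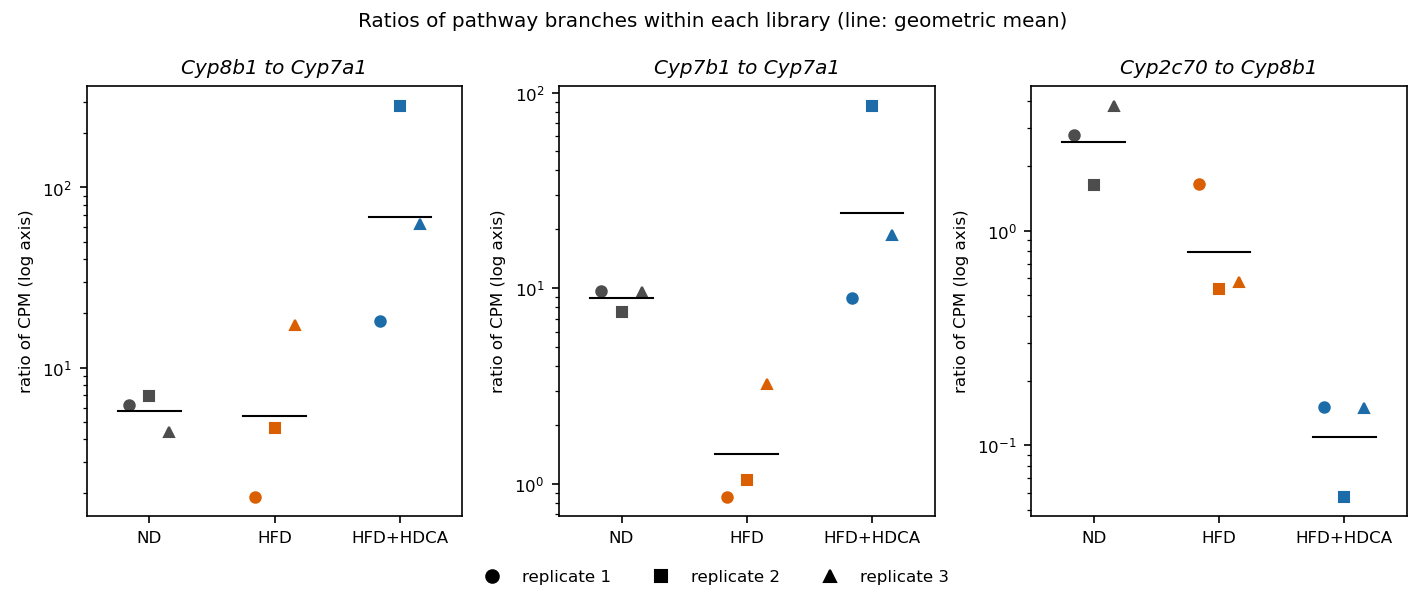
Ratio of CPM between pairs of enzymes in each of the 9 libraries, by diet, on log axes; symbols are libraries by replicate number and lines are geometric means (n = 3). In HFD_HDCA the Cyp8b1 to Cyp7a1 ratio lies at 18.1 to 285 and the Cyp2c70 to Cyp8b1 ratio at 0.0574 to 0.151, both apart from the other diets.

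Levels of different enzymes can be set beside each other only per transcript length, for which the authors' deposited FPKM values were used. In ND the highest was Cyp2c70 at 378 ± 142 FPKM (SD, n = 3), whose libraries overlapped those of Hsd3b7 (319 ± 10.8). Hsd3b7 in turn overlapped Slc27a5 (313 ± 6.77). Next came Cyp27a1 (253 ± 14.8), Cyp7b1 (175 ± 57.2), Baat (137 ± 7.88) and Cyp8b1 (126 ± 22.6), each overlapping its neighbour. Amacr (58.1 ± 8.26) and Akr1d1 (52.1 ± 5.72) overlapped each other and lay below these. Cyp7a1, the rate-limiting enzyme, was the lowest at 9.61 ± 2.58 FPKM, below the next enzyme in every diet.

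The order changed with the diet. In HFD Hsd3b7 (352 ± 34.5 FPKM) and Slc27a5 (300.0 ± 28.0) led, Cyp8b1 stood at 171 ± 86.2 and Cyp2c70 at 135 ± 2.94. Cyp7b1 was then the lowest but for Cyp7a1, at 36.2 ± 8.78 FPKM against 14.3 ± 8.20. In HFD_HDCA Hsd3b7 (331 ± 9.73), Cyp8b1 (328 ± 22.2) and Slc27a5 (310 ± 32.2) overlapped at the top. Cyp2c70, the first in ND, was ninth of 10 at 43.2 ± 18.1 FPKM, overlapping Akr1d1 (43.8 ± 20.1). Cyp7b1 stood at 105 ± 33.1 and Cyp7a1 at 3.50 ± 3.89 FPKM.

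**Figure D4:**
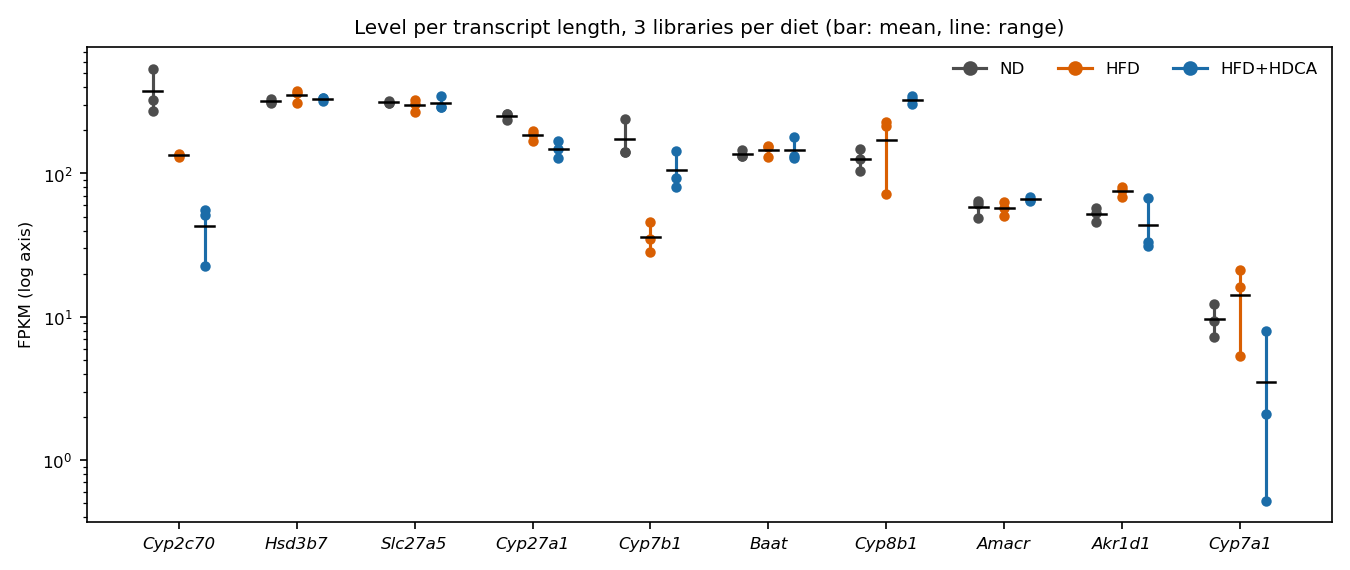
Level per transcript length (FPKM, log axis) of the 10 enzymes, ordered by their mean in ND; points are libraries, bars are means and lines span the range (n = 3 per diet). Cyp2c70 goes from 378 FPKM in ND to 43.2 FPKM in HFD_HDCA while Hsd3b7 stays at 319 to 352 FPKM.

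For the 3 enzymes that changed in a comparison, the genes with the most similar pattern over the 9 libraries were found as those with the smallest root mean square difference of centred log2 CPM, among 10243 genes. Closest to Cyp7b1 were Susd4, at 0.365, Mup7, at 0.367, and Cadm4, at 0.403, where the own spread of Cyp7b1 on that scale was 1.05. Susd4 is one of the male-biased genes listed above, and Mup7 encodes a major urinary protein, of a family whose near-identical members can share reads. Closest to Cyp27a1 were Trib2 (0.138), Gar1 (0.146) and Vps13c (0.149), beside an own spread of 0.348. Closest to Cyp2c70 were Acmsd, an enzyme of tryptophan breakdown (0.456), Ces2c, a carboxylesterase (0.562), and Dct (0.575), beside an own spread of 1.37. Acmsd stood at 30.6, 26.2 and 44.9 CPM in ND, 12.7, 11.2 and 10.7 in HFD, and 9.45, 4.53 and 6.92 in HFD_HDCA.

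Among 16 other enzymes of bile acid synthesis, 15 were tested. HFD against ND gave 2 rises and 0 falls, HFD_HDCA against HFD 3 and 0, and HFD_HDCA against ND 5 and 2. Over all tested genes 0.953, 3.4 and 6.47% changed in these comparisons. The medians of the list were 0.05, -0.16 and -0.11, beside 0.02, -0.002 and 0.03 over all tested genes. Cyp39a1, another oxysterol hydroxylase, rose in each comparison. It stood at 19.8, 19.6 and 19.4 CPM in ND, 33.6, 28.7 and 32.5 in HFD, and 45.0, 54.0 and 47.5 in HFD_HDCA, with no overlap between diets. The log2 difference was 0.69 ± 0.11 for HFD minus ND (adjusted p = 0.0198), 0.63 ± 0.11 for HFD_HDCA minus HFD (0.0142) and 1.32 ± 0.11 for HFD_HDCA minus ND (0.000764). The call passed in 5, 7 and 9 of 9 leave-one-out fits. It was lost for HFD against ND without ND 1, ND 2, ND 3 or HFD 3, and for HFD_HDCA against HFD without HFD 2 or HFD_HDCA 3.

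Acot8, a peroxisomal thioesterase of side-chain shortening, rose in HFD_HDCA. It stood at 15.6 ± 0.422 CPM in ND, 18.0 ± 1.43 in HFD and 29.0 ± 2.95 in HFD_HDCA (SD, n = 3 each), with an adjusted p of 0.0128 against HFD and 0.00272 against ND. The first was lost without HFD 3 or HFD_HDCA 3. Slc27a2, a coenzyme A ligase of very long chain fatty acids and bile acid precursors, stood at 1601 ± 94.7, 1564 ± 207 and 2691 ± 315 CPM in ND, HFD and HFD_HDCA, with adjusted p-values of 0.0198 against HFD and 0.0163 against ND. It lost the first call without HFD 3 or HFD_HDCA 3 and the second without any of 4 libraries (ND 1, ND 2, ND 3 or HFD_HDCA 3). Acnat2, an acyltransferase that conjugates fatty acids and has the near-identical neighbour Acnat1, rose from 11.1 ± 1.77 CPM in ND to 77.6 ± 37.7 in HFD and 66.1 ± 27.5 in HFD_HDCA, with adjusted p-values of 0.0259 and 0.0139. The first call was lost without any of 5 libraries (ND 1, ND 2, ND 3, HFD 2 or HFD 3), and the second without ND 1 or ND 2. The other 3 changes in HFD_HDCA against ND fall outside the rule for named genes and are named with their values seen. Cyp46a1 rose (adjusted p = 0.0295), while Cyp2a12 (0.0225) and Fdxr (0.0407) fell, and each was lost when ND 1, ND 2, ND 3 or HFD_HDCA 3 was left out. Cyp46a1 and Fdxr were lost without HFD_HDCA 2 as well, and Fdxr without HFD 3.

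**Figure D5:**
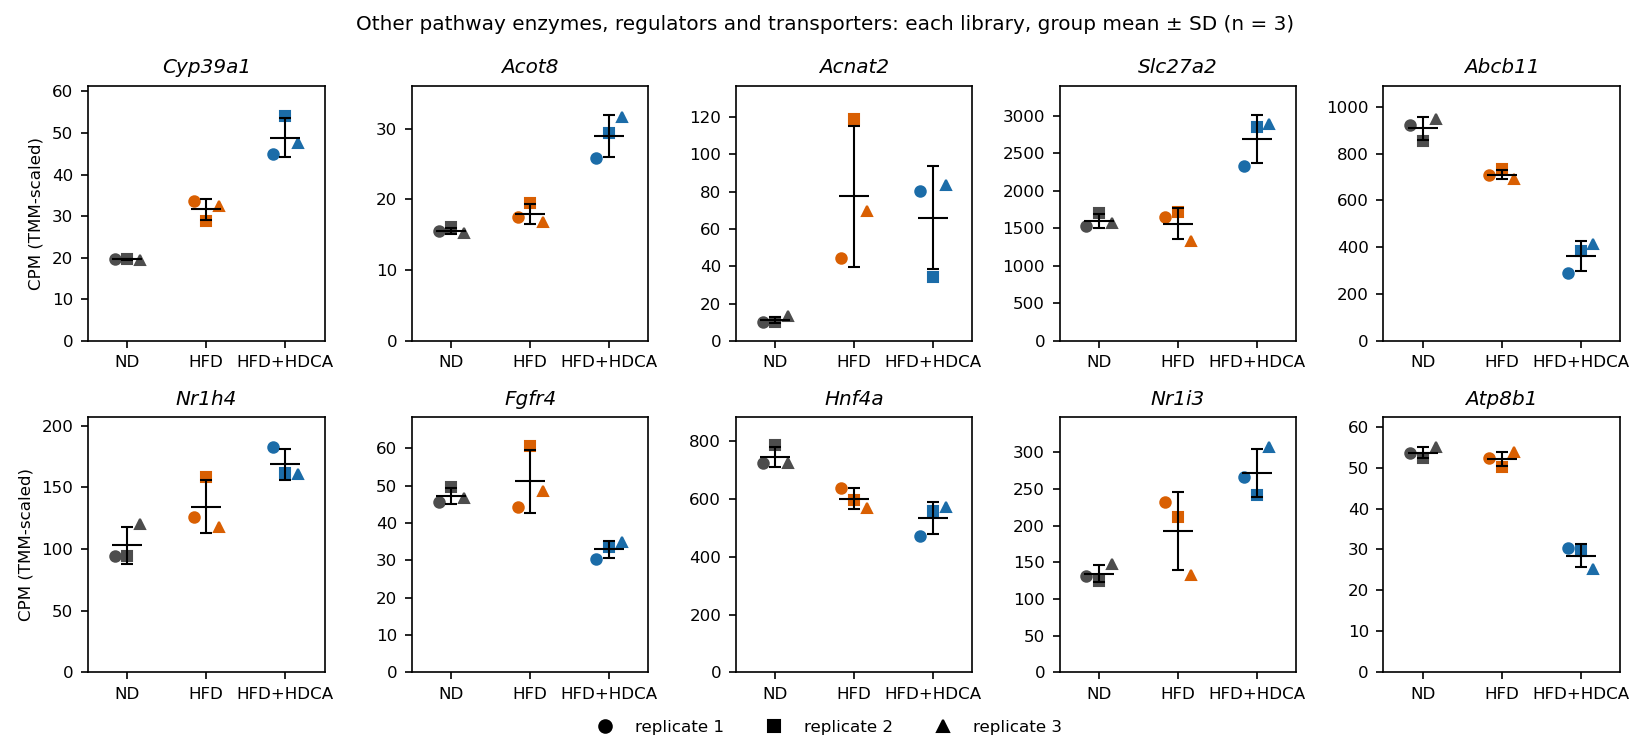
Level of 10 other genes of bile acid synthesis, its regulation and bile acid transport in the 9 libraries, in CPM on TMM-scaled library sizes (axes start at 0). Symbols are libraries by replicate number and black bars the group mean ± SD (n = 3); Cyp39a1 steps up from 19.6 to 48.8 CPM, and Abcb11 steps down from 908 to 363 CPM, between the means of ND and HFD_HDCA.

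Of 15 regulators, 14 were tested, and Fgf15, made in the gut, had 0 reads in every library. In HFD against ND 0 changed (0.953% of all genes changed). Before adjustment 2 rose and 1 fell there at p under 0.05 (11.5% of all genes lay under it), and DESeq2 found 0 (3.08% of all genes called). In HFD_HDCA against HFD 1 fell and 0 rose (3.4% of all genes changed), and against ND 2 rose and 2 fell (6.47%). The medians were 0.06, -0.12 and -0.26 in the 3 comparisons, beside 0.02, -0.002 and 0.03 over all tested genes. Fgfr4, the hepatocyte FGF15 receptor, fell from 51.1 ± 8.44 CPM in HFD and 47.3 ± 2.14 in ND to 32.9 ± 2.35 in HFD_HDCA (SD, n = 3 each, adjusted p = 0.0281 and 0.0379). The call against HFD passed in 4 of 9 leave-one-out fits, those without ND 3, HFD 1, HFD_HDCA 1 or HFD_HDCA 2, and that against ND in 3, those without HFD 1, HFD 2 or HFD_HDCA 2.

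Nr1h4, encoding FXR, rose from 103 ± 14.8 CPM in ND to 169 ± 12.6 in HFD_HDCA (adjusted p = 0.0202), and Nr1i3, encoding the receptor CAR, from 134 ± 11.7 to 272 ± 32.7 (adjusted p = 0.0149). Both were lost without ND 1, ND 2 or HFD_HDCA 3. Hnf4a, which activates many liver genes and whose motif is shown above in Cyp8b1 and Cyp2c70, fell from 746 ± 35.2 to 535 ± 54.5 CPM (adjusted p = 0.0431). That call passed in 2 of 9 leave-one-out fits, those without HFD 1 or HFD_HDCA 2. Nr0b2, encoding SHP, stood at 46.8 ± 13.7 CPM in ND, 43.5 ± 5.64 in HFD and 32.0 ± 14.8 in HFD_HDCA and did not pass in any comparison.

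Of 12 bile acid transport genes, 10 were tested. In HFD against ND 0 changed (0.953% of all genes changed). Before adjustment 1 rose and 3 fell there at p under 0.05 (11.5% of all genes lay under it), and DESeq2 found 1 higher (3.08% of all genes called). In HFD_HDCA 2 fell and 0 rose against each of the other diets, where 1.73% of all genes fell against HFD and 2.82% against ND. The medians were -0.25, 0.01 and -0.28, beside 0.02, -0.002 and 0.03 over all tested genes. Abcb11, the pump that exports bile salts into bile, stood at 921, 854 and 949 CPM in ND, 707, 733 and 692 in HFD, and 292, 382 and 415 in HFD_HDCA. The diets did not overlap, and the adjusted p was 0.00825 against HFD and 0.00146 against ND. Atp8b1, a lipid flippase of the same membrane, stood at 53.6, 52.3 and 55.1 CPM in ND, 52.4, 50.2 and 53.8 in HFD, and 30.3, 29.8 and 25.3 in HFD_HDCA. Its ND and HFD values lay within a few CPM of each other and all HFD_HDCA values below them, with adjusted p-values of 0.00341 and 0.00154. Both falls passed in 9 of 9 leave-one-out fits.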

How the data were processed

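RNA was extracted with a lipid tissue kit and libraries were made with a TruSeq RNA kit, per the labels' protocols. The submitters' processing notes name mm10, TopHat 1.3.2 and Cufflinks 2.0.2. The deposited counts are whole reads per gene from the authors' counting, and the deposited FPKM are the authors' Cufflinks estimates per gene; how strand was set is not given in the sources used here. Rows that name no gene held 5 read classes and stayed out of library sizes; 63.9 to 72.1% of each file's reads lay on genes.

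Diet groups and replicate numbers came from the labels. Computed here were filterByExpr (minimum count 10), TMM factors and edgeR 4.0.16 (R 4.3.3) quasi-likelihood F tests with robust fitting and 1 coefficient per diet, with Benjamini-Hochberg adjustment over 12587 genes. FPKM were tested with limma 3.58.1 on log2(FPKM + 1), and DESeq2 1.42.0 was an alternative. A count of 3 reads, the floor used here, equals at most 0.182 CPM. edgeR and DESeq2 were also run on simulated counts that held known 2-fold and 4-fold differences. In HFD against ND, HFD_HDCA against HFD and HFD_HDCA against ND, edgeR wrongly called 14, 11 and 13 genes, of 169, 173 and 168 calls. DESeq2 wrongly called 33, 33 and 32, of 198, 204 and 192. It recovered 69, 78 and 65% of the 2-fold differences, against 61, 71 and 61% for edgeR. The simulated counts were drawn with the spread that edgeR estimated and held no libraries that stood apart. They therefore cannot show how the 2 tests behave with such libraries. A call made by DESeq2 alone is treated here as weaker evidence. The 10 enzymes, the other lists and the libraries left out together were chosen with earlier results of these data known. Named are the 10 enzymes, the 3 nearest genes of those called, and at most 4 called genes per list and comparison by smallest adjusted p.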

Additional observations from a re-analysis of the deposited data

How the results depend on the processing

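Of 600 alternative values for the 30 fold changes of the 10 enzymes, 546 kept direction and side of the threshold, 8 lost the threshold, 22 gained it and 24 changed sign. The cause was not tested. Counts below are for HFD against ND, HFD_HDCA against HFD and HFD_HDCA against ND, in that order. The main test called 120, 428 and 815 genes, and 1, 1 and 2 of the enzymes. DESeq2 called 380, 1085 and 1398 genes, and 3, 3 and 3 enzymes. Without HFD 1 and HFD_HDCA 1 the numbers were 576, 977 and 1157 genes, and 3, 2 and 4 enzymes. A fit on the 2 groups compared gave 153, 134 and 1002 genes, and 2, 1 and 3 enzymes. FPKM without a filter gave 86, 264 and 495 genes, and 1, 0 and 2 enzymes. FPKM with a pseudocount of 1 or 0.1, and total count scaling, called 2 enzymes in HFD_HDCA against HFD. Leaving out 1 library gave 32 to 226, 127 to 672 and 196 to 1213 genes, and 0 to 2, 0 to 1 and 2 to 3 enzymes.

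Same-numbered libraries deviated together in 1 of 9 pairs (correlation over 0.1), and 3 of 9 libraries correlated best with one of their own number, so the numbers were not taken as pairs. With the replicate number as a block, 82, 328 and 715 genes and 0, 0 and 2 enzymes were called. The adjusted p of Cyp7b1 was then 0.0650 for HFD against ND and 0.0736 for HFD_HDCA against HFD.

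Sign changes were of small, uncalled differences. For HFD minus ND, Hsd3b7 was -0.026 without HFD 1 and HFD_HDCA 1, and Baat 0.09 on FPKM (0.087, 0.088 and 0.087 under the 3 FPKM settings). For HFD_HDCA minus HFD, Hsd3b7 was -0.045 with total count scaling and -0.083 on FPKM, and Baat was -0.0065 on FPKM (-0.0067 with a pseudocount of 0.1) and -0.057 without HFD 1 and HFD_HDCA 1. For HFD_HDCA minus ND, Hsd3b7 was -0.016 with total count scaling and Baat -0.11 without those libraries. Leaving out 1 library moved HFD minus ND to between -0.028 and 0.118 for Hsd3b7 and -0.101 and 0.076 for Baat, HFD_HDCA minus HFD to between -0.048 and 0.098 for Hsd3b7 and -0.078 and 0.264 for Baat, and HFD_HDCA minus ND to between -0.11 and 0.23 for Baat and -0.134 and 0.070 for Slc27a5. The log2 ratio of Cyp8b1 to Cyp7a1 in HFD minus ND ran from -0.95 to 0.64. FPKM with a pseudocount of 0.1 moved the median of all genes to 0.11 in HFD minus ND and to -0.11 in HFD_HDCA minus HFD.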

Other observations

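Genes that mark other liver states were read in the same fits. Of 14 tested clock genes, 0 changed in HFD against ND. Before adjustment 3 rose and 1 fell there at p under 0.05 (11.5% of all genes lay under it), and DESeq2 found 1 higher (3.08% called). In HFD_HDCA against HFD, where 1.73% of all tested genes fell, 2 clock genes fell. These were Per2, a repressor of the clock, at 22.2 ± 7.87 CPM in HFD and 4.53 ± 1.19 in HFD_HDCA (SD, n = 3; edgeR adjusted p = 0.0128), and Bhlhe40 (adjusted p = 0.0351). The Per2 call passed in 9 of 9 leave-one-out fits and that of Bhlhe40 in 4. In HFD_HDCA against ND, where 2.82% of all tested genes fell, 1 clock gene fell, again Per2 (edgeR adjusted p = 0.0372). That call passed in 3 of 9 such fits, those without ND 2, HFD 1 or HFD 2. Of 10 acute phase genes, 0 changed in edgeR in any comparison. Before adjustment, 0, 3 and 6 rose at p under 0.05 in HFD against ND, HFD_HDCA against HFD and HFD_HDCA against ND. Of all tested genes 11.5, 22 and 26.1% lay under it. DESeq2 found 0, 0 and 2 acute phase genes higher, where it called 3.08, 8.8 and 11.1% of all genes. The summed level of the 10 was 36299 CPM in HFD_HDCA 1 but 11968 and 13002 CPM in HFD_HDCA 2 and 3.

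Among 10 hepatocyte markers, Cps1, an enzyme of the urea cycle, fell from 3237 ± 371 CPM in ND to 1500 ± 262 in HFD_HDCA (adjusted p = 0.00619), and Tat, a tyrosine aminotransferase, from 2540 ± 151 to 759 ± 29.4 (adjusted p = 0.0146). The Cps1 call passed in 9 of 9 leave-one-out fits, and that of Tat was lost without ND 1, HFD_HDCA 1 or HFD_HDCA 3. Hnf4a, described with the regulators, was the other hepatocyte marker that fell in HFD_HDCA against ND, where 2.82% of all tested genes fell. Of the 10 markers 5 had a positive and 5 a negative log2 difference in this comparison. Before adjustment 3 were higher and 4 lower at p under 0.05 (26.1% of all genes lay under it). DESeq2 called 2 higher and 3 lower (11.1% of all genes called).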
